A study of Mus musculus with 12 samples.

Results

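The genes described here are the 9 named members of the LIN28 and let-7 axis: Lin28a, Lin28b, Trim71, Hmga2, Hmga1, Igf2bp1, Igf2bp2, Igf2bp3 and Dis3l2. They were found by symbol among the 51467 genes of the count table, and all 9 passed the filter on low counts, as did 14033 genes in all. Mouse embryonic stem cells (ESCs) were either wild type, of the V6.5 line, or lacked DGCR8 (Dgcr8 KO), a line made earlier in the same laboratory. The titles and genotype labels of the KO samples name DGCR8, while their source names read DDX8KO. Both were grown with serum, LIF and the inhibitor pair called 2i, and both received 4-thiouridine (4sU), a uridine analogue, at 500 uM for 30 min. RNA that had taken up 4sU was captured to measure nascent transcription, and RNA depleted of ribosomal RNA measured the steady-state level, here called total RNA. Each of the 4 groups (wild-type and KO, 4sU and total) held 3 libraries. Each genotype rests on 1 line, so genotype and line cannot be told apart. Lin28a was chosen by its measured RNA level, which is nearly lost in the KO libraries, so its own difference is described without a test. The other members were chosen by name as genes of the same pathway, but with earlier results of these data known. Their p-values and shares are therefore not those of a set picked without sight of the data.

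The axis is a circuit of RNA-binding proteins and a microRNA family that times development. LIN28A and LIN28B bind let-7 precursors and block their processing. DIS3L2 is the nuclease that degrades LIN28-bound precursors once the uridylyl transferases TUT4 and TUT7 have marked them. Mature let-7 in turn represses mRNAs that carry its sites, among them those of Lin28a, Lin28b, the ubiquitin ligase and mRNA repressor Trim71, the chromatin proteins Hmga1 and Hmga2, and the IGF2 mRNA-binding proteins Igf2bp1, Igf2bp2 and Igf2bp3. DGCR8 works with DROSHA to cut primary microRNA transcripts, which is the first step in making let-7 and nearly every other microRNA. ESCs hold little mature let-7, and microRNAs with the AAGUGC seed are the abundant family there.

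The mature microRNAs below are shown because their seeds (bases 2 to 8, in capitals) define the sites counted in the members. The sequences are from RefSeq (GRCm38.p6). Of the 11 mature let-7 family entries, 10 shared the seed of let-7a and let-7j differed at its last base.
let-7a-5p: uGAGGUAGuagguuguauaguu
let-7g-5p: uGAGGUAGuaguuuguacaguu
miR-98-5p: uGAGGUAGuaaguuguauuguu
let-7j: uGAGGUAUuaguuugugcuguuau
miR-125a-5p: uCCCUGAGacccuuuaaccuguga
miR-294-3p: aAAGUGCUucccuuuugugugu

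Members' target sites were read from GENCODE M21 transcripts (mm10), on the sense strand of the longest 3′ UTR. A let-7 site was a match to CTACCTC or TACCTCA, and a stretch that holds both, CTACCTCA, was counted once and called an 8mer. The sites below, with the match in capitals, show the 8mer nearest the stop codon of each member that has one, the lone site of Hmga1, and the single miR-125 match (CTCAGGG or TCAGGGA) of Lin28a and of Lin28b.
Lin28a, let-7, chr4:134005187-134005212, minus strand: tgcacagcctgttgaaCTACCTCAtt
Lin28b, let-7, chr10:45381020-45381045, minus strand: cacccgggcgggaagtCTACCTCAtg
Trim71, let-7, chr9:114512470-114512495, minus strand: caacattgcctaagtcCTACCTCAgc
Hmga2, let-7, chr10:120364222-120364247, minus strand: cgccgacattcaatttCTACCTCAgc
Hmga1, let-7, chr17:27563275-27563300, plus strand: tctcctctgttcacaaaCTACCTCtg
Igf2bp1, let-7, chr11:95961776-95961801, minus strand: tgctgtgcgaagtaaaCTACCTCAag
Igf2bp2, let-7, chr16:22059471-22059496, minus strand: aacacacaaataaaagCTACCTCAgg
Igf2bp3, let-7, chr6:49086785-49086810, minus strand: gtgcatttttactcaaCTACCTCAgg
Lin28a, miR-125, chr4:134005299-134005324, minus strand: caggtacatgagcaatCTCAGGGAta
Lin28b, miR-125, chr10:45378796-45378821, minus strand: aggacaaagaactttgCTCAGGGAac

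The members' 3′ UTRs held from 0 to 7 let-7 matches each. Sites were counted because most members are known as let-7 targets, so their choice favours an excess over all genes. Hmga2 held 7, Trim71 held 6, Lin28b and Igf2bp1 held 5 each, Lin28a and Igf2bp2 held 2 each, Hmga1 and Igf2bp3 held 1 each, and Dis3l2 held 0. Of 11807 tested protein-coding genes with a 3′ UTR, 17.3% held at least 1 match and 0.136% (16 genes) held at least 5. The members' 3′ UTRs ranged from 350 to 6337 bases, and 7 of the 9 were longer than the median of 1201 bases over those genes, which adds room for matches. The AAGUGC family (AGCACTT or GCACTTA) had 2 matches in Lin28b, 1 in Trim71 and 1 in Igf2bp1, and 21.3% of genes held at least 1. The miR-125 match was not particular to the LIN28 pair: Trim71 held 4, Hmga2, Igf2bp3 and Dis3l2 held 1 each, and 23.3% of genes held at least 1. A match is a run of letters in this window and was not tested as a binding site.

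Total counts ranged from 4593914 to 9295245 per library. Dgcr8 itself stood at 648 to 911 counts in wild-type total libraries and at 222 to 298 in KO total libraries (log2 change -1.60, limma adjusted p = 6.63e-17), so reads from the gene remained, and the labels do not say which part was removed. The sum of 8 ESC markers was 4951 to 5043 CPM (read counts over the TMM-adjusted library size) in wild-type total and 4837 to 4924 CPM in KO total libraries. The sum of 7 fibroblast markers was 10.97 to 13.3 and 5.45 to 6.78 CPM there, with Col3a1 and Dcn at 0 in both groups. Of the markers of primed cells, endoderm, trophoblast and neural cells, summed total levels were 169 to 180, 7.03 to 9.02, 4.51 to 5.58 and 101 to 110 CPM in wild-type, and 141 to 150, 9.99 to 12.9, 3.63 to 3.75 and 69.6 to 75.7 CPM in KO libraries. In 4sU libraries the ESC and primed sums were the higher ones in KO, at 5813 to 5973 and 191 to 223 CPM in wild-type and 6520 to 7162 and 292 to 345 CPM in KO. The endoderm sum was 16.4 to 17.2 against 18.1 to 22.1 CPM there, and the fibroblast, trophoblast and neural sums, 9.97 to 14.2, 25.1 to 27.2 and 109 to 120 CPM in wild-type, were 5.52 to 6.87, 17.99 to 21.8 and 94.8 to 101 CPM in KO. The part of these markers in the results was not tested.

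Lin28a and Lin28b traded places (ENSMUSG00000050966.9, mm10 chromosome 4, 134003330 to 134018841, and ENSMUSG00000063804.8, chromosome 10, 45376620 to 45470201, both protein-coding on the minus strand). Lin28a was at 104, 91.9 and 112 CPM in wild-type total RNA and at 0.113, 1.04 and 1.30 CPM in KO total RNA. The wild-type values rest on 668, 754 and 964 counts and the KO values on 1, 8 and 9. On the group means this is 126-fold lower in the KO libraries, and 87.9-fold without KO replicate 1, which held the 1 count. In 4sU RNA, wild-type libraries held 213, 160 and 232 counts of Lin28a and KO libraries 3, 2 and 3. Set against a floor of 3 counts per library, nascent Lin28a was at least 62.5-fold lower. The groups were far apart in both kinds of library, and in a bulk sample fewer cells with a transcript and less of it per cell cannot be told apart.

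Lin28b moved the opposite way. It was at 14.8, 15.1 and 12.3 CPM in wild-type total RNA and at 90.6, 94.2 and 92.8 CPM in KO total RNA, a log2 rise of 2.72 (SE 0.116, limma adjusted p = 2.4e-19, n = 3 a group). In 4sU RNA it was at 3.54, 7.95 and 5.69 CPM in wild-type and at 40.2, 50.4 and 49.1 CPM in KO libraries, a log2 rise of 3.12 (SE 0.206, limma adjusted p = 3.75e-14). No KO library came near a wild-type one on either scale. Group means differed 6.57-fold in total and 8.13-fold in nascent RNA. The wild-type 4sU values rest on 22, 38 and 32 counts.

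**Figure D1:**
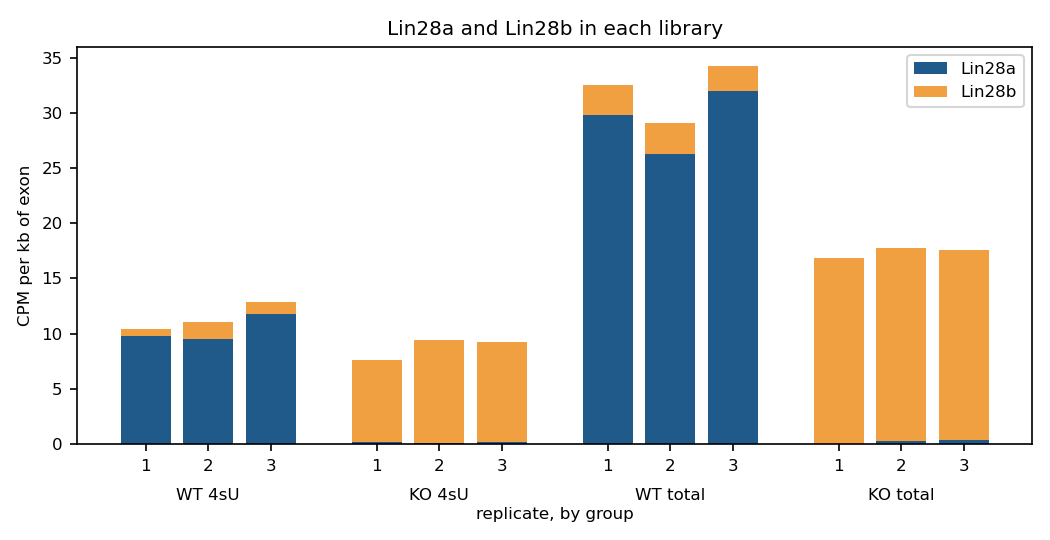
Stacked bars give Lin28a and Lin28b in each of the 12 libraries, in CPM per kb of exon, with replicates side by side within each group. Lin28a makes up nearly all of each wild-type bar and Lin28b nearly all of each KO bar, and the KO total bars reach 16.8 to 17.7.

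Per kb of exon, the wild-type total libraries held 29.8, 26.2 and 32.0 CPM of Lin28a and 2.75, 2.80 and 2.28 of Lin28b. The KO total libraries held 16.8, 17.4 and 17.2 CPM per kb of Lin28b. Lin28a thus made up 91.8% of the summed LIN28 level in wild-type total RNA and 1.32% in KO total RNA. The sum itself was 31.9 ± 2.65 CPM per kb (SD, n = 3) in wild-type and 17.4 ± 0.489 in KO total RNA, so the higher Lin28b level did not make up the summed level of the wild-type. In 4sU RNA the sums lay closer, at 11.4 ± 1.25 and 8.77 ± 1.01 CPM per kb (SD, n = 3). Since Lin28a fixed the choice of genes, these sums and shares are descriptions.

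Whether the others followed Lin28a was asked next, in total RNA. They did not move as a group. Of the 8 members other than Lin28a, 3 rose (Lin28b, Igf2bp2, Hmga2), 4 fell (Igf2bp3, Hmga1, Trim71, Igf2bp1) and Dis3l2 did not pass the test, at a limma adjusted p under 0.05. Of all 14033 genes tested, 63.9% passed, with 27.2% higher and 36.7% lower, so 7 of 8 is a share to be read against a high background. With a log2 change over 1 also required (a called gene), Lin28b was called higher and Igf2bp3 lower, against 9.33% and 7.82% of all genes (17.2% in all). The median log2 change was -0.10 over the 8 members and -0.09 over all genes. All 3 KO libraries lay above all 3 wild-type libraries for 3 of the 8 and below for 4, against 29.2% and 39.6% of all genes.

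**Figure D2:**
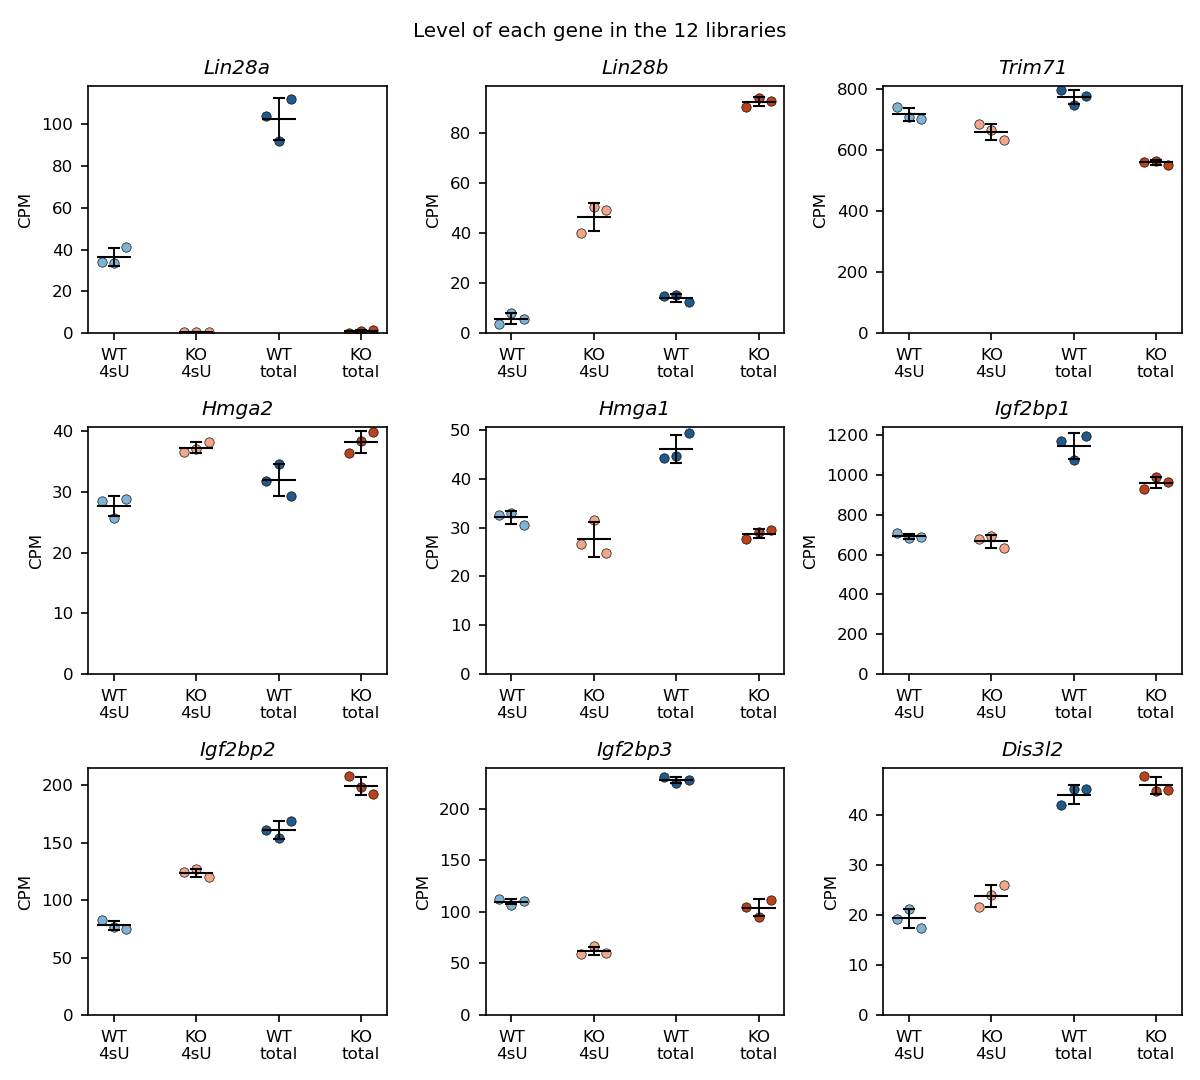
Each panel plots 1 gene, with the CPM of the 3 libraries of each group as points and the mean and SD as bars, on linear axes from 0. The KO points lie apart from the wild-type points in total RNA for every gene but Dis3l2, with Lin28b, Hmga2 and Igf2bp2 above and the others below.

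Trim71, the partner of LIN28 in developmental timing, is an abundant transcript in these cells (ENSMUSG00000079259.2, chromosome 9, 114507133 to 114564369, minus strand). It was at 795, 747 and 775 CPM in wild-type total RNA and at 561, 564 and 551 CPM in KO total RNA. The log2 difference was -0.47 (SE 0.0428, limma adjusted p = 3.79e-11). The nascent values were 742, 707 and 700 CPM in wild-type and 683, 664 and 631 CPM in KO libraries, and the groups did not overlap there either. The nascent log2 change of -0.12 passed with limma (adjusted p = 0.024) but not with the edgeR quasi-likelihood test (adjusted p = 0.0596), nor with library size scaling alone (limma adjusted p = 0.0657). It also missed the threshold without wild-type replicate 1 (limma adjusted p = 0.114), KO replicate 2 (0.0943) or KO replicate 3 (log2 -0.07, 0.232).

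The HMGA pair split. Hmga2 (ENSMUSG00000056758.14, chromosome 10, 120361275 to 120476469, minus strand), the classic let-7 target, was at 31.9, 34.5 and 29.3 CPM in wild-type total RNA and at 36.4, 38.4 and 39.8 CPM in KO total RNA, a log2 rise of 0.26 (SE 0.0849, limma adjusted p = 0.00821). Without wild-type replicate 3 the log2 change was 0.18 (limma adjusted p = 0.0883). Nascent Hmga2 was at 28.5, 25.7 and 28.8 CPM in wild-type and 36.6, 37.0 and 38.3 CPM in KO libraries, a log2 rise of 0.43 (SE 0.102, limma adjusted p = 0.000695). KO values were the higher ones throughout, by less than 1.5-fold on the means (1.2 in total and 1.35 in nascent RNA).

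Hmga1 (ENSMUSG00000046711.15, chromosome 17, 27556620 to 27563674, plus strand) went down in total RNA, from 44.3, 44.6 and 49.4 CPM to 27.8, 29.1 and 29.4 CPM, a log2 difference of -0.69 (SE 0.0865, limma adjusted p = 3.04e-08). Its nascent values, 32.7, 33.0 and 30.6 CPM in wild-type and 26.6, 31.7 and 24.8 CPM in KO libraries, overlapped, and the log2 change of -0.22 did not pass (limma adjusted p = 0.0856). It did pass with RLE scaling (log2 -0.28, adjusted p = 0.0302) and with upper-quartile scaling (log2 -0.27, adjusted p = 0.0346), and without KO replicate 2 (log2 -0.31, limma adjusted p = 0.0381). Reads from 69.1% of the 50-base windows of the Hmga1 transcript also match Hmga1b, a near-identical gene on chromosome 11, so unique mapping leaves both under-counted and their split uncertain. Hmga1b itself fell in total RNA (log2 -0.71, limma adjusted p = 7.81e-05), from 18.8 ± 1.20 to 11.6 ± 0.624 CPM (SD, n = 3). Per kb, Hmga2 made up 26.6% of the Hmga1 and Hmga2 sum in wild-type and 41.0% in KO total RNA. The under-counting of Hmga1 raises both shares.

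The IGF2BP family also split, with Igf2bp3 and Igf2bp1 lower and Igf2bp2 higher in total RNA. Igf2bp3 (ENSMUSG00000029814.10, chromosome 6, 49085223 to 49214957, minus strand) was at 231, 226 and 228 CPM in wild-type and at 105, 95.1 and 112 CPM in KO total RNA. The log2 difference was -1.14 (SE 0.0582, limma adjusted p = 2.68e-17), or 2.20-fold on the means, and among the members other than Lin28a it was the largest fall. Nascent Igf2bp3 went from 112, 107 and 111 CPM to 59.6, 67.0 and 60.5 CPM, a log2 difference of -0.82 (SE 0.0755, limma adjusted p = 7.66e-11). Igf2bp3 shares 34.5% of its transcript windows with Malsu1 on the opposite strand, and the counting was strand-specific.

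Igf2bp2 (ENSMUSG00000033581.16, chromosome 16, 22059009 to 22163299, minus strand) was at 161, 154 and 169 CPM in wild-type and at 209, 198 and 193 CPM in KO total RNA, a log2 rise of 0.31 (SE 0.0546, limma adjusted p = 9.23e-06). Its nascent rise was 0.66 (SE 0.0694, limma adjusted p = 1.26e-09), from 82.7, 76.3 and 75.3 CPM to 124, 127 and 120 CPM. Igf2bp1 (ENSMUSG00000013415.9, chromosome 11, 95957163 to 96005940, minus strand), the most abundant of the members per kb, was at 1172, 1074 and 1197 CPM in wild-type and at 932, 989 and 964 CPM in KO total RNA. Its total RNA fell (log2 -0.25, SE 0.0431, limma adjusted p = 5.32e-06), while its nascent values overlapped (707, 682 and 688 against 679, 692 and 632 CPM, log2 change -0.05, limma adjusted p = 0.358). The per-kb sum of the 3 paralogues was 229 ± 9.97 CPM in wild-type and 188 ± 1.08 CPM in KO total RNA (SD, n = 3).

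Dis3l2 (ENSMUSG00000053333.15, chromosome 1, 86703819 to 87050095, plus strand), the nuclease of the pathway and the lone member without a let-7 match, was nearly level in total RNA. It was at 42.0, 45.4 and 45.2 CPM in wild-type and at 48.0, 44.9 and 45.2 CPM in KO total RNA, with a log2 difference of 0.06 (SE 0.0776, limma adjusted p = 0.539). Nascent Dis3l2, at 19.3, 21.3 and 17.4 CPM in wild-type and 21.6, 24.0 and 26.1 CPM in KO libraries, had a log2 rise of 0.31 (SE 0.122, limma adjusted p = 0.0297), a call that 8 of 14 alternatives lost. Among them were DESeq2 (adjusted p = 0.106), RLE scaling (limma adjusted p = 0.0702) and the fits without wild-type replicate 1 or 3 (0.0724 and 0.144) or without KO replicate 2 or 3 (0.0629 and 0.112).

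In nascent RNA as a whole, 4 of the 8 members rose (Lin28b, Igf2bp2, Hmga2, Dis3l2) and 2 fell (Igf2bp3, Trim71), while 56.3% of all genes passed the test (28.3% higher, 28% lower). Lin28b was the lone member called, against 9.5% of all genes higher (14.8% in all). The KO libraries lay above the wild-type ones for 4 of the 8 and below for 2, against 29.6% and 29.4% of all genes. The median log2 change was 0.13 over the 8 members and -0.02 over all genes. All 6 members that passed in nascent RNA had a total change of the same sign, though that of Dis3l2, at 0.06, did not pass. The number that passed in nascent RNA was 5 with edgeR or DESeq2. It was 4 without wild-type replicate 1 or KO replicate 3.

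**Figure D3:**
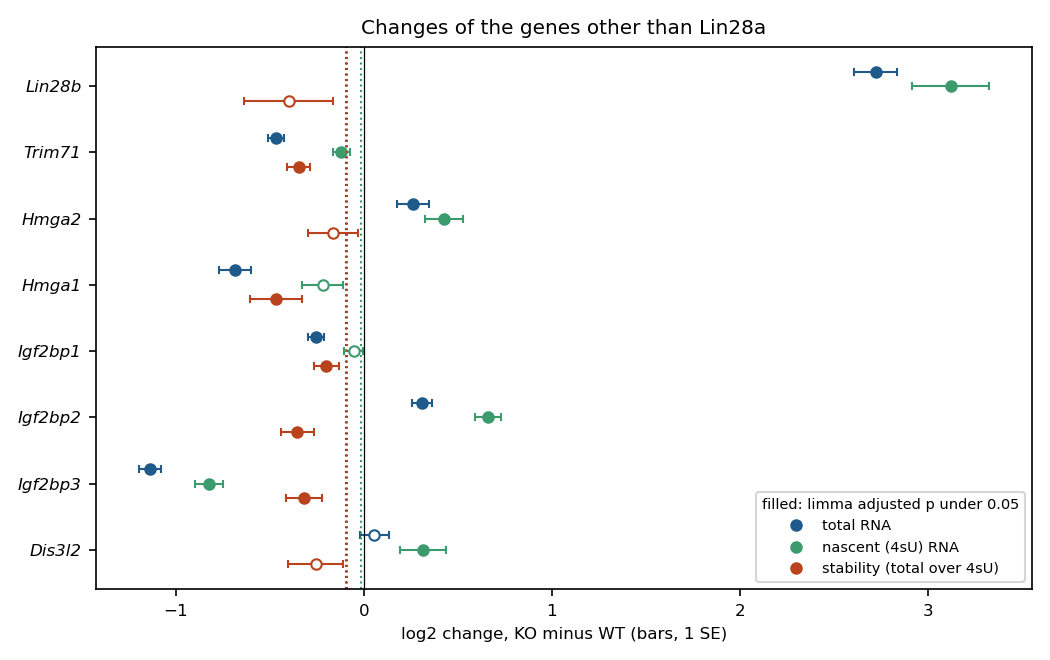
Points give the log2 change (KO minus wild-type) of the 8 members other than Lin28a, with bars of 1 SE, in total RNA, nascent RNA and stability, and dotted lines give the median of all genes in each. Filled points passed at a limma adjusted p under 0.05, and all 8 stability points lie left of 0 while the total and nascent points lie on both sides.

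The ratio of total to 4sU signal, a measure of relative RNA stability, was then compared. In wild-type cells the members ranked from near the median gene to well above it. On the log2 scale relative to the median of all genes, Lin28a stood at 1.51, 1.34 and 1.34 in the 3 replicates, a mean of 1.40 ± 0.0991 (SD, n = 3), at percentile 91. Dis3l2 followed at 1.08 ± 0.159, Igf2bp3 at 0.96 ± 0.00733, Igf2bp2 at 0.95 ± 0.11, Igf2bp1 at 0.64 ± 0.0818 and Hmga1 at 0.42 ± 0.149 (SD, n = 3). Lin28b, at 1.85, 0.78 and 0.96, spread too far to be placed among these. Hmga2 (0.11 ± 0.189) and Trim71 (0.02 ± 0.0444) lay within their spread of the median gene. These positions depend on the genes compared: among genes with 3 CPM in all 12 libraries, Trim71 stood at -0.25 and Hmga2 at -0.16.

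The change of this ratio in KO cells was below 0 for all 8 members other than Lin28a, and 5 of the 8 fell: Hmga1 (log2 -0.47, SE 0.139, limma adjusted p = 0.018), Igf2bp2 (log2 -0.35, SE 0.0883, limma adjusted p = 0.0049), Trim71 (log2 -0.35, SE 0.0623, limma adjusted p = 0.000158), Igf2bp3 (log2 -0.32, SE 0.0953, limma adjusted p = 0.0197) and Igf2bp1 (log2 -0.20, SE 0.0656, limma adjusted p = 0.0338). The other 3 were Lin28b at -0.40 (limma adjusted p = 0.28), Dis3l2 at -0.26 (0.252) and Hmga2 at -0.17 (0.452). Single replicates set the size of these: Lin28b was at -0.03 without wild-type replicate 1 and Hmga2 at -0.06 without wild-type replicate 2 and -0.26 without wild-type replicate 3. None was called, as were 1.76% of all genes, and 16.1% of all genes passed the test (5.02% higher, 11.1% lower). The median log2 change was -0.33 over the 8 members and -0.09 over all genes, and KO lay below wild-type without overlap for 5 of the 8, against 23.4% of all genes. Set against the median gene of each replicate, Igf2bp1 overlapped too, which leaves 4. The 23.4% is not on that basis, for which the share of all genes was not counted.

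The count of 5 depended on the scaling. With RLE scaling, which moved the median of all genes to -0.003, 2 of the 8 passed (Trim71 and Igf2bp2), and 6.84% of all genes fell while 7.48% rose. Of the genes that passed, 31.1% were higher with TMM, 52.2% with RLE and 46.6% with upper-quartile scaling, under which 3 of the 8 passed. DESeq2 also passed 2 of the 8. All 8 changes stayed below 0 under each scaling. When 1 library pair was left out at a time, 3 of the 8 passed without wild-type replicate 1, without wild-type replicate 3 and without KO replicate 1, and without KO replicate 2 the same pair, Trim71 and Igf2bp2, did. Over 15 alternatives the limma, edgeR or DESeq2 adjusted p of Trim71 ran from 3.05e-06 to 0.00632 and that of Igf2bp2 from 0.00128 to 0.0538, while Igf2bp1 missed the threshold in 11, Hmga1 in 6 and Igf2bp3 in 6.

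**Figure D4:**
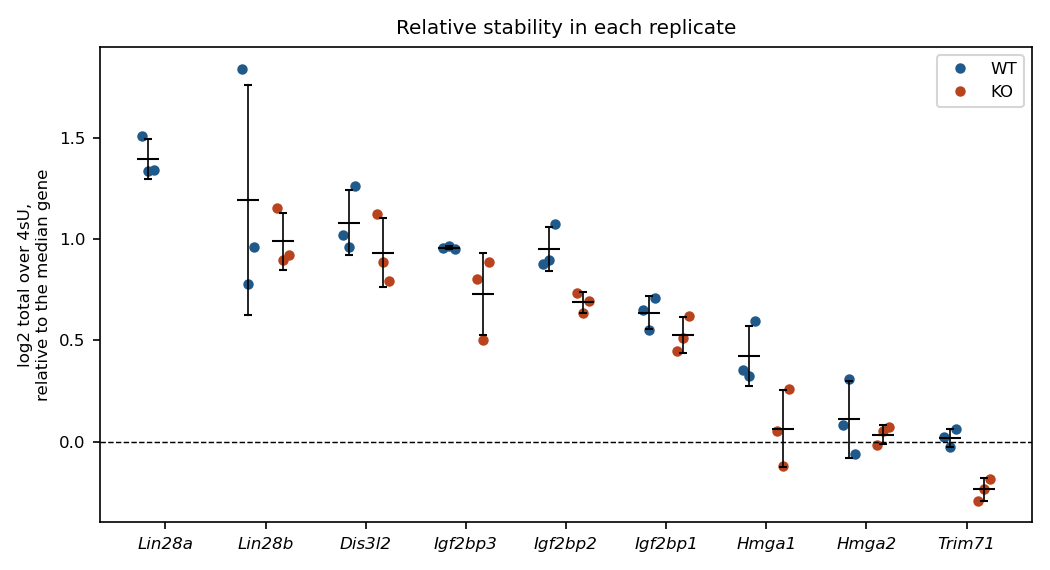
Points give the log2 ratio of total to 4sU signal in each replicate, relative to the median gene of that replicate, for wild-type and KO cells, with the mean and SD as bars. The KO mean lies below the wild-type mean for each of the 8 members shown in both genotypes, the points overlap for Lin28b, Dis3l2, Igf2bp1 and Hmga2, and Lin28a is shown in wild-type only since its KO ratios rest on 1 to 9 counts.

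The order of the members by level per kb shows how the set was rearranged. In wild-type total RNA it was Igf2bp1 (137 CPM per kb), Trim71 (82.8), Igf2bp3 (52.5), Igf2bp2 (39.9), Lin28a (29.3), Hmga1 (23.2), Dis3l2 (14.01), Hmga2 (8.37) and Lin28b (2.61), and no neighbours overlapped in their 3 libraries. In KO total RNA it was Igf2bp1 (115), Trim71 (59.9), Igf2bp2 (49.4), Igf2bp3 (23.9), Lin28b (17.1), Dis3l2 (14.6), Hmga1 (14.5), Hmga2 (10.03) and Lin28a (0.233), and Dis3l2 and Hmga1 overlapped. Lin28b went from percentile 27.5 to percentile 66.6 of all tested genes, and Igf2bp2 and Igf2bp3 exchanged rank. Igf2bp1 and Trim71 led in all 4 groups. Hmga1 is under-counted, with 69.1% of its 50-base windows matching Hmga1b, so its place in both orders is uncertain.

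The genes whose pattern over the 12 libraries was most like that of Lin28a (Pearson r of log2 CPM, a description over points that share genotype and library type) were Mmp17 (r = 0.995), Pif1 (0.992), Ung (0.991), Fblim1 (0.990) and Rnf166 (0.988). None of them was lost as Lin28a was: Fblim1 held up to 176 counts and Mmp17 up to 97 in a KO total library. Among the members, r with Lin28a ran from -0.84 for Lin28b to 0.83 for Trim71.

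The let-7 precursor genes had few counts in these libraries, over short annotated lengths. Of 15 precursor and host genes listed, 5 passed the filter: Mirlet7a-1, Mirlet7f-1, Mirlet7g and the host genes Huwe1 and Wdr82. Per kb, the first 3 were at 79.7, 81.5 and 20.3 CPM in wild-type 4sU libraries, beside 76.7 for Trim71. In wild-type total libraries they were at 9.75, 9.97 and 1.03 CPM per kb, beside 82.8 for Trim71. Reads of this library type come from primary transcripts and hosts, not from mature microRNAs. Mirlet7a-1 counts were 41, 47 and 34 in wild-type 4sU and 145, 117 and 126 in KO 4sU libraries, a log2 rise of 1.78 (SE 0.189, limma adjusted p = 1.74e-09), and 3, 13 and 6 against 28, 16 and 25 in total libraries (log2 rise of 1.70, SE 0.434, limma adjusted p = 0.00101). Mirlet7g counts were 11, 7 and 12 in wild-type 4sU and 20, 23 and 37 in KO 4sU libraries, and it passed the filter only through the latter, so its difference is given without a test. Its host Wdr82 fell in nascent RNA (log2 -0.63, SE 0.0516, limma adjusted p = 5.21e-12) and was at 304 CPM on average in both genotypes in total RNA. Mirlet7f-1, the neighbour of Mirlet7a-1, did not pass in either (log2 -0.33 in nascent RNA, limma adjusted p = 0.224).

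Apart from the LIN28 pair and Dgcr8, transcripts listed for proteins that process, tail or bind let-7 changed by less than 2-fold. Of 15 listed genes, all of which passed the filter, 3 rose and 5 fell in total RNA, where 27.2% and 36.7% of all genes did, and 3 rose and 6 fell in nascent RNA, where 28.3% and 28% did. None passed in stability (16.1% of all genes), and none was called, against 17.2%, 14.8% and 1.76% of all genes in total, nascent and stability. Drosha, the nuclease that DGCR8 works with, rose by 0.28 in total and 0.27 in nascent RNA (limma adjusted p = 3.62e-05 and 0.00079). Tarbp2, a partner of DICER, and Xpo5, the exporter of precursors, both fell in total RNA (log2 -0.75 and -0.38, limma adjusted p = 4.13e-06 and 1.05e-07). The uridylyl transferases Tut4 and Tut7, which mark LIN28-bound precursors for DIS3L2, had log2 differences of -0.21 and -0.16 in total RNA. Both passed (limma adjusted p = 0.0123 and 0.0457), but Tut7 missed the threshold in 13 of 14 alternatives (adjusted p up to 0.193) and Tut4 in 5 (up to 0.0787), among them the fits without wild-type replicate 3 (0.0556) or KO replicate 2 (0.0787). The median of the list was -0.08 in total and -0.12 in nascent RNA, against -0.09 and -0.02 over all genes.

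Other mRNAs generally named as let-7 targets went both ways. Of 24 listed, 22 passed the filter, 1 of them, the cyclin gene Ccnd2, only through KO libraries. Ccnd2 had 79, 74 and 65 counts in KO total libraries against 1, 2 and 4 in wild-type, and nascent Ccnd2 was at least 16.8-fold higher in KO, against a floor of 3 counts per library. It is left out of the counts that follow, as are the 762 of all genes tested that reached the filter's 3 CPM in 1 genotype only, a choice made after seeing the data. Of the other 21, 11 rose and 8 fell in total RNA, where 26% and 36.8% of all such genes did, and 4 were called, against 13.7%. The median log2 change was 0.18 over the 21 and -0.10 over all such genes. The 3 called higher were cell cycle and growth regulators: Ccnd1 (log2 1.56, SE 0.0625, limma adjusted p = 6.71e-20), Cdk6 (log2 1.46, SE 0.0743, limma adjusted p = 2.56e-17) and Mycn (log2 1.10, SE 0.0641, limma adjusted p = 8.19e-16). Hras was called lower (log2 -1.12, SE 0.0781, limma adjusted p = 6.08e-14). In nascent RNA 9 rose and 8 fell, against 26.8% and 27.5% of such genes, and the medians were -0.03 and -0.02. The 4 called, all higher, were the same 3 and the nuclear receptor Nr6a1 (log2 1.02, SE 0.0824, limma adjusted p = 4.21e-12), against 10.8% of such genes called. With Ccnd2 kept in, 5 were called, and 3 with DESeq2, RLE or upper-quartile scaling. Nascent Mycn, at log2 1.04, also lay near the limit of 1. The log2 change of Nr6a1 ran down to 0.9635 over 14 alternatives. In stability 2 rose and 4 fell (Hras, Cdc34, Nras, Irs2), against 5.2% and 11.6% of such genes. Those that rose were Plagl2 and Tgfbr1, the latter not without wild-type replicate 1 or KO replicates 1 or 2 (limma adjusted p = 0.106, 0.0809 and 0.075). Plagl2 was the 1 gene called, against 1.66% of such genes. The median change was -0.06 over the 21 and -0.09 over such genes. With the culture as a block, Plagl2 (log2 1.01) was at 1.00 and no longer past the limit of 1.

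The mRNAs named as TRIM71 targets rose in total but not all in nascent RNA. Of 5 listed, 4 passed the filter, and all 4 rose in total RNA, where 27.2% of all genes did: the RB family genes Rbl2 (log2 2.17, SE 0.0857, limma adjusted p = 4.27e-20) and Rbl1 (0.63, SE 0.0658, limma adjusted p = 5.63e-10), the cell cycle inhibitor Cdkn1a (0.77, SE 0.0953, limma adjusted p = 2.31e-08) and the repressor E2f7 (0.30, SE 0.0991, limma adjusted p = 0.00914, or 0.0646 without KO replicate 1). Rbl2 total levels were 26.4, 21.95 and 23.1 CPM in wild-type and 105, 104 and 110 CPM in KO libraries. In nascent RNA, where 28.3% of all genes rose, Rbl2 and Rbl1 did (log2 0.74 and 0.60, limma adjusted p = 1.09e-07 and 1.16e-06). Nascent Cdkn1a was at -0.16 and E2f7 at -0.04 (limma adjusted p = 0.0542 and 0.718). In stability, where 5.02% of all genes rose, Cdkn1a and Rbl2 did, by 0.92 and 1.43 (limma adjusted p = 9.62e-07 and 1.39e-09). Both are also known targets of the AAGUGC family. The list holds few genes, and it was chosen with results of these data known.

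**Figure D5:**
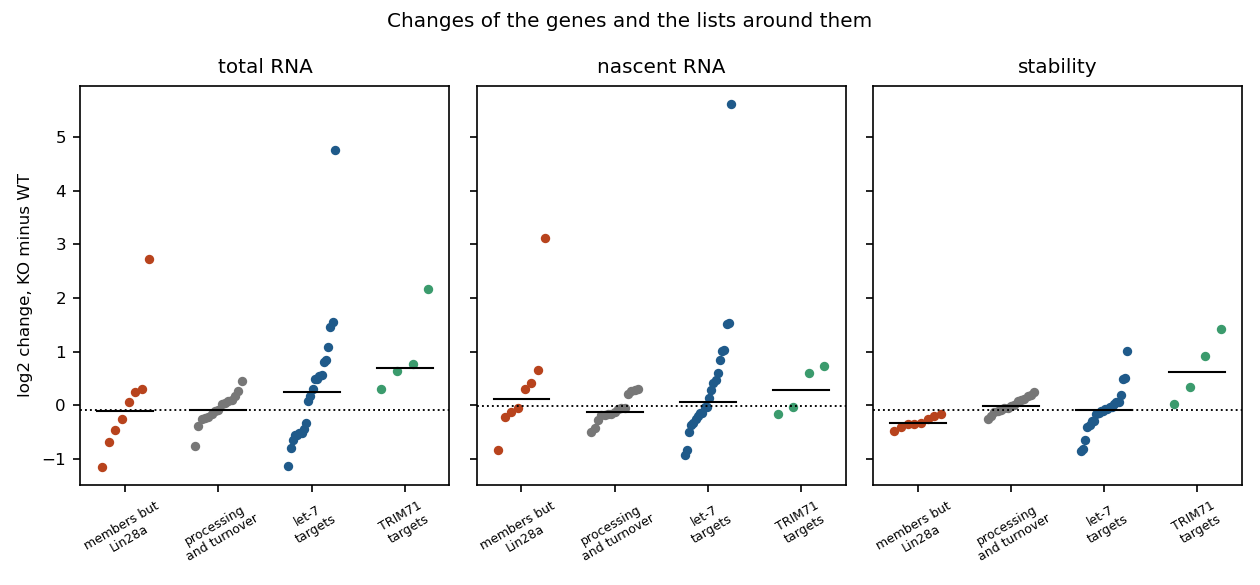
Each point is the log2 change (KO minus wild-type) of 1 gene that passed the filter, in total RNA, nascent RNA and stability, for the members other than Lin28a, the processing and turnover list, the let-7 targets and the TRIM71 targets. Short lines are list medians and the dotted line is the median of all genes, and in total RNA the let-7 targets run from -1.12 (Hras) to 4.77 (Ccnd2, at 1 to 4 counts in wild-type). Ccnd2 is kept in the let-7 target medians drawn here, 0.245 in total RNA.

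Across all protein-coding genes with a 3′ UTR, those with a let-7 match had a median log2 stability change of -0.07 and those without even the 6-base core (TACCTC) one of -0.11, a difference of 0.03. For the AAGUGC family the same difference was 0.17 (0.03 against -0.14), and for miR-125 it was 0.01. In total and nascent RNA the differences were 0.12 and 0.08 for let-7, 0.27 and 0.07 for the AAGUGC family, and 0.09 and 0.08 for miR-125. The length of the 3′ UTR, which adds room for matches, was not taken into account. The 5 members that fell in stability held 6 (Trim71), 5 (Igf2bp1), 2 (Igf2bp2), 1 (Hmga1) and 1 (Igf2bp3) let-7 matches. Hmga2, with 7, Lin28b, with 5, and Dis3l2, with 0, did not pass. The Lin28b estimate was among the larger ones, at -0.40, but with an SE of 0.236. Of the 5, Igf2bp1, Hmga1 and Igf2bp3 missed the threshold in 11, 6 and 6 of 15 alternatives. A link between matches and stability in the members was not tested.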

How the data were processed

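Values were raw counts per gene, deposited by the authors without normalization. Per the file headers, labels and methods of the study, reads (50 bases, strand-specific) were trimmed with cutadapt 1.14, uniquely mapped to mm10 with STAR 2.5.3a and counted with featureCounts 1.5.3 against GENCODE M14. GENCODE M21 supplied symbols, gene types and 3′ UTRs, with 51274 of 51467 genes matched. No column was left unused. Genes with at least 3 CPM in at least 3 libraries were kept (14033). Counts were scaled by TMM (edgeR 4.0.16) and fitted with limma 3.58.1 (voom) in R 4.3.3, with 1 model over the 12 libraries. The filter, limma and the interaction term follow the study's methods, which name neither TMM nor voom. Stability is total over 4sU signal, its change the interaction, and ratios by replicate added 0.5 CPM. P-values are Benjamini-Hochberg adjusted over all genes tested. The edgeR quasi-likelihood test and DESeq2 1.42.0 were alternatives, as were other scalings, filters, a replicate block and leaving out each replicate. The code was tested on simulated data.

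Named genes are the 9 members, Dgcr8, genes that share sequence with a member, the 5 genes most like Lin28a by correlation, any gene of the processing and TRIM71 lists, and of the other lists up to 4 called rises and 4 called falls a comparison. Wdr82, Huwe1, Mirlet7f-1, Mirlet7g, Mirlet7c-2, Mirlet7b, Mir98 and the let-7 targets named for stability were named after their values were seen. The members and lists were chosen with earlier results of these data known. Per the methods each labelled RNA sample was split into 4sU and total RNA, so same-numbered libraries of a genotype were taken as 1 culture, though the labels do not say so. Their deviations correlated at 0.0161 to 0.105. The labels do not say whether replicates were separate cultures, so p-values measure the spread between these samples, which may be technical. Floors cover counting error only.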

Additional observations from a re-analysis of the deposited data

Results flagged for a closer look

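Plagl2, a zinc finger factor on the let-7 target list, moved in opposite directions in the 2 kinds of library, and the difference itself passed the test. Its total RNA was at 10.5, 12.6 and 13.7 CPM in wild-type and 20.8, 21.7 and 23.0 CPM in KO libraries (log2 0.81), while its nascent RNA was at 142, 112 and 125 CPM in wild-type and 111, 111 and 109 CPM in KO libraries (log2 -0.20). The total to 4sU ratio rose by 1.01 on the log2 scale (limma interaction term, adjusted p = 1.54e-05), higher in 3 of 3 KO replicates. None of the 9 members moved in opposite directions by this measure. The nascent difference alone was small (limma adjusted p = 0.0213), and it missed the threshold in 5 of 14 alternatives (adjusted p up to 0.219), among them the fits without wild-type replicate 1 (log2 -0.11, 0.219) or KO replicate 1, 2 or 3 (0.0608, 0.0705 and 0.0856), while the ratio passed in all 15.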

How the results depend on the processing

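All values of Lin28b and of Igf2bp3 in total and nascent RNA, and of Trim71, Hmga1, Igf2bp1 and Igf2bp2 in total RNA, kept their direction and side of the threshold under each alternative run. Of 468 values of members under alternatives, 408 did so or moved by less than the replicate SD. For the changes of Lin28a the limit was 1 SE of the fit instead. Of 449 values of other named genes, 421 kept their direction and side of the threshold. Genes called numbered 4002 (total) and 3801 (nascent) with no filter beyond 1 count, 1045, 837 and 115 (total, nascent, stability) with 3 CPM required in all 12 libraries, and 8971, 7898 and 2261 with no limit on the log2 change. That last choice gave, in total, nascent and stability, 7, 6 and 5 members other than Lin28a, 20, 18 and 6 let-7 targets, 4, 2 and 2 TRIM71 targets, 8 and 9 machinery genes (total, nascent), and 4 and 1 let-7 genes and hosts (nascent, stability). List counts in this section keep Ccnd2 and Mirlet7g wherever they passed the filter, unless their removal is stated. With no filter the let-7 genes and hosts called were 5 in total and 4 in nascent RNA, and TRIM71 targets 1 in nascent RNA, and with the stricter filter let-7 genes and hosts were 0 in both. Lin28a has no value under the stricter filter. Without genes past the filter in 1 genotype only, added after seeing the data, let-7 genes and hosts called were 1 in total and in nascent RNA. Nascent let-7 targets called, with Ccnd2 kept, were 5 in the main fit and 3 with DESeq2, RLE and upper-quartile scaling. Members that passed in stability were 2 with DESeq2, 2 with RLE, 3 with upper-quartile scaling and 1 with no filter, and TRIM71 targets called there were 2 with DESeq2 and RLE.

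Leaving out each replicate gave 2 to 5 members that passed in stability (2 without KO replicate 2), 1 to 2 let-7 genes and hosts called in total and in nascent RNA (1 without each KO replicate in turn, since Mirlet7g then missed the filter), and 0 to 1 let-7 targets called in stability (0 without wild-type replicate 1 or KO replicate 3). The Lin28a log2 value ran from -7.94 (without KO replicate 3) to -6.38 (without KO replicate 1). Igf2bp1 in nascent RNA ran from -0.0705 (without wild-type replicate 2) to 0.0027 (without KO replicate 3), and the wild-type stability of Trim71 from -0.0022 (without wild-type replicate 3) to 0.0422 (without wild-type replicate 2). Among genes with 3 CPM in all 12 libraries, that of Trim71 was -0.246 and that of Hmga2 -0.1565. With 8mers alone the let-7 stability difference was 0.0547. The cause of these changes was not tested.

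Deviations of same-numbered wild-type and KO libraries correlated at -0.0825 to 0.0777. Those of same-numbered 4sU and total libraries of a genotype did so at 0.0161 to 0.105. The ranges overlap, so this measure cannot say whether the numbers pair wild-type with KO libraries. With the number as a replicate block, 2438, 2051 and 293 genes were called in total, nascent and stability, and 7, 6 and 5 members other than Lin28a passed, with Tut7 lost (adjusted p = 0.053). With the culture (same-numbered 4sU and total libraries) as a block in stability, 262 genes were called, 5 members passed and let-7 targets called were 0, and no other call of a gene named for stability changed. Depth limits the KO Lin28a values, which rest on 1 to 9 counts in total and 2 to 3 in 4sU libraries, and less so wild-type nascent Lin28b, at 22 to 38 counts.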

Other observations

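The let-7 precursor genes that missed the filter held few counts. Mirlet7c-2 had 0 counts in each wild-type total library and 6, 4 and 2 in the KO total libraries, and Mirlet7b had 0 in each wild-type and 4, 5 and 4 in the KO total libraries. Mir98, which lies in Huwe1, ran the other way in 4sU libraries, with 11, 10 and 15 counts in wild-type and 3, 1 and 4 in KO. At these depths the values are given without a test. Egr1, the TRIM71 target that missed the filter, had 15, 7 and 12 counts in wild-type 4sU and 40, 13 and 50 in KO 4sU libraries.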
